A study of Mus musculus with 9 samples.

Results

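The genes described here encode the proteins of the cytosolic ribosome in mouse CD4+ T cells. They were chosen by name: protein-coding genes whose symbol starts with Rpl or Rps and a digit, or is Rpsa, Rplp0, Rplp1 or Rplp2, without pseudogenes and the Rps6k kinases, and with a mean of at least 1 CPM (counts per 1000000 counts of a library) over all libraries. The rule found 82 genes among the 55536 identifiers of the count table, of which 49 belong by name to the large subunit and 33 to the small subunit. The rule itself uses no measured difference between groups, but the members were chosen with earlier results of these data known. Another 4 genes of such a name were below 1 CPM (Rpl10l, Rpl39l, Rpl3l and Rps27rt), and 7 were annotated as pseudogenes. Rps19bp1, which encodes an Rps19-binding protein, and Rpl7l1, an Rpl7-like protein, are members by name but are not subunits of the mature cytosolic ribosome. All 82 genes passed the filter on low counts.

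CD4+ T cells labelled as wild type (genotype WT) were taken from spleens of male mice between 6 and 12 weeks old and stimulated for 18 h. The stimulus was beads coated with anti-CD3 and anti-CD28, which engage the antigen receptor and a costimulatory receptor. It was given together with IL-2, a T cell growth factor, at 5 ng/mL. During these 18 h, 3 cultures received exosomes, which are small secreted vesicles, of ApoE-deficient BMDM (EKO_exo), 3 received exosomes of wild-type BMDM (WT_exo), and 3 received the buffer PBS. BMDM commonly stands for macrophages grown from bone marrow. The exosome cultures received 2e+09 particles per mL. All groups therefore share the beads and IL-2, and ApoE was deleted in the mice that gave the exosomes and not in the T cells. The question posed by the design is how exosomes of either origin change the mRNA of activated T cells.

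Each eukaryotic ribosome joins a small subunit, which reads the mRNA, to a large subunit, which forms the peptide bonds, and nearly every protein of either subunit is needed once per ribosome. The mRNAs of these proteins typically begin with a 5′ terminal oligopyrimidine tract, an unbroken run of C and T (U in the RNA), through which mTORC1 and the RNA-binding protein Larp1 control mainly their translation. T cells make many ribosomes as they leave quiescence after stimulation through the antigen receptor.

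The libraries held between 25792975 and 30221565 counts in EKO_exo, 29138950 and 32971791 in WT_exo, and 28412418 and 30464334 in PBS. The 7 CD4 T cell markers summed to between 3029 and 3090 CPM in EKO_exo, 2909 and 2991 CPM in WT_exo, and 2926 and 2985 CPM in PBS, and all were expressed. Markers of macrophages, the cells that gave the exosomes, summed to between 24.1 and 28.5 CPM in EKO_exo, 21.7 and 29.1 CPM in WT_exo, and 18.6 and 28.7 CPM in PBS, with 4 of 7 below 1 CPM. B cell markers stayed at or below 7.08 CPM in every library, and 3 of 4 erythroid markers were at 0. The 2 CD8 T cell markers were low but moved with the groups, summing to between 9.53 and 10.4 CPM in EKO_exo, 8.31 and 10.2 CPM in WT_exo, and 11.2 and 12.3 CPM in PBS. On the first principal component of log2 CPM (17.4% of the variance), PBS lay between -17.2 and -12.8 and the exosome libraries between 2.3 and 18.5. On the second (16.6%), EKO_exo replicate 3 lay at 29.1 and EKO_exo replicate 1 at -17.8. The other 7 libraries lay between -4.9 and 2.1. On the third (14%), EKO_exo replicate 2 lay at -13.3, beside WT_exo at -11.7 to -8.3. EKO_exo replicates 1 and 3 lay at 19.1 and 5.6. Fewer genes were detected in EKO_exo (19038 to 19518) than in WT_exo and PBS (19989 to 20568). The part of these marker and library differences in the results below was not tested.

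The sequence feature that the family is known for was looked for at its annotated starts. RefSeq (GRCm38.p6) gave starts for 62 of the 82 genes, 37 of the large and 25 of the small subunit, with 73 starts in all. An unbroken run of at least 7 C and T that held the annotated first base stood at 26.0% of these starts, against 4.67% of all 21263 starts in the table. The letters CTTTCC or CTTTTC stood on the transcript strand within 20 bases of 19.2% of the starts of ribosomal protein genes, against 3.02% of all starts, and on the other strand of 1.37%, against 2.55%. CCGGAA, the core of the sites of ETS factors, stood on either strand at 16.4%, against 5.5%, while the TATA box letters TATAAA stood at 1.37%, against 0.945%. The 2 pyrimidine motifs overlap in part with the runs of C and T, and a match describes letters, not a used start or a bound site.

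The windows below show 15 bases before the annotated first base and 15 from it onwards, 5′ to 3′, with the longest run of C and T in capitals. The first 4 hold the longest runs of the family that include the first base, and the next 6 are those genes that passed the test between groups and have a RefSeq entry.
Rpl7a (chr2:26910792-26910821, plus strand): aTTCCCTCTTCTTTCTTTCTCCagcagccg
Rpl27a (chr7:109519180-109519209, plus strand): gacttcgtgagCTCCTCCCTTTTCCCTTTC
Rpl35 (chr2:39005117-39005146, minus strand): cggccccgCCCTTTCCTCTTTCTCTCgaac
Rpl15 (chr14:18270972-18271001, minus strand): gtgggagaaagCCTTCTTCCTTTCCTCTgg
Rps16 (chr7:28350674-28350703, plus strand): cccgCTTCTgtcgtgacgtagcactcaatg
Rps19 (chr7:24884577-24884606, plus strand): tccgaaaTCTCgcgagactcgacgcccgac
Rps3 (chr7:99483695-99483724, minus strand): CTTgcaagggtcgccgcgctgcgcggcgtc
Rpl37 (chr15:5116598-5116627, plus strand): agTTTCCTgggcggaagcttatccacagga
Rps7 (chr12:28635939-28635968, minus strand): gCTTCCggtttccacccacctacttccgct
Rpl10a (chr17:28328456-28328485, plus strand): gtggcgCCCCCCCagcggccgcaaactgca
The run was 21 bases long in Rpl7a, 18 in Rpl35 and 17 in Rpl15. In Rpl27a it was at least 19 bases long, since it reached the end of the window. Of the 6 genes that passed the test and have a window, 0 had a run of 7 or more over the annotated first base, and in Rpl10a the run of 7 C ended 3 bases before it. RefSeq starts and the gene spans of GENCODE M21 given below do not always name the same base, so a missing run says only that these letters are not at this annotated start.

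Levels differed far more between ribosomal protein genes than between groups. In CPM per kilobase of the principal transcript, averaged over the 9 libraries, the highest gene stood 804-fold above the lowest. In the large subunit Rpl4, a protein lining the peptide exit tunnel, led with 2044 CPM per kb, followed by Rpl8, near the peptidyl transferase centre, with 1832 and the stalk base protein Rplp0 with 1028. In the small subunit Rps15 with 1450 CPM per kb and Rps9 with 1308 were among the highest. Rps15 stood at 1480 ± 9.40 CPM per kb in EKO_exo, 1473 ± 20.4 in WT_exo and 1398 ± 42.7 in PBS, and Rps9 at 1315 ± 26.4 in EKO_exo, 1303 ± 58.3 in WT_exo and 1305 ± 33.8 in PBS (SD, n = 3 each). The order at the top depended on the length used. Per kilobase of coding length, Rpl41, whose coding part is very short, led with 4782 CPM against 2501 for Rpl4, Rplp0 was at rank 11, and Rps9 (2053) and Rps3 (2145) stood above Rps15 (1667). Rpl24 was lowest with either length.

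At the other end of the large subunit stood Rpl24, a protein of an intersubunit bridge, with 2.54 CPM per kb, Rpl36al with 5.24 and Rpl19, another bridge protein, with 6.35. The lowest of the small subunit were Rpsa, also known as the laminin receptor precursor, with 7.40 CPM per kb, Rps6, the classical substrate of the S6 kinases, with 8.50 and Rps28 with 13.1. Here too the order depended on the length used. Per kilobase of coding length, Rpl23a (11.3) stood below Rpl36al (21.0), and Rps27 (22.3) below Rps28 (27.6). Rpl24 stood at 1.53, 1.28 and 2.66 CPM in EKO_exo replicates 1, 2 and 3, at 1.00, 1.92 and 2.64 CPM in WT_exo, and at 1.83, 0.955 and 1.67 CPM in PBS, so its groups overlapped. The median was 67.9 CPM per kb in the large and 136.9 in the small subunit. The 10 most counted genes held 60.2% of all counts of the family, and 9 genes stayed under 10 CPM. Together the family held between 2.06% and 2.26% of a library's counts.

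Many of these genes have near-identical copies in the genome, and reads that match several places can be lost or moved when each read is given to a single gene. How such reads were handled is not given in the sources used here. In the median gene, 34.3% of the 100-base stretches of the principal transcript also occurred, on either strand, in annotated transcripts of other genes. This share ranged from 0% in genes such as Rps3 to 98.4% in Rps27. Across the 82 genes the level per kb fell with this share (Spearman rho = -0.413, a description over genes of the same libraries), whereas it had almost no relation with transcript length (rho = 0.02). The 51 genes with less than 50% shared stretches had a median of 153.3 CPM per kb, against 53.4 for the 31 others. Levels of genes such as Rpl24, Rps6, Rps27 and Rpl19 are therefore uncertain as measures of the mRNA.

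**Figure D1:**
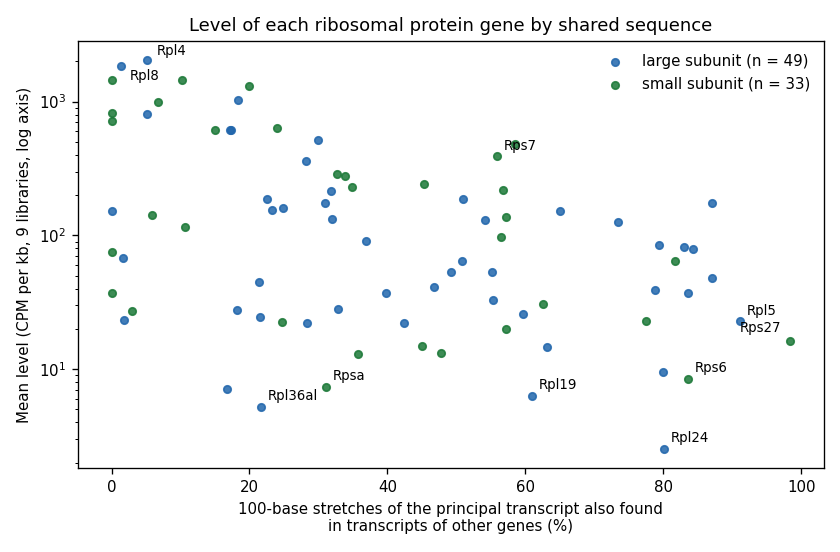
Mean level of each of the 82 genes over the 9 libraries in CPM per kb (vertical, log axis) against the percentage of its 100-base stretches that also occur in transcripts of other genes (horizontal), coloured by subunit. Rpl4 and Rpl8, with few shared stretches, stand at the top, and Rpl24 and Rps6, with over 80% shared, stand near the bottom. Rpl36al (21.7% shared), Rpl21 (16.7%) and Rpsa (31.1%) stand below Rps6 as well, so low levels also occur with few shared stretches.

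Counts on the 294 named pseudogenes of 56 members added at most 0.0063% of a library. They were largest relative to the parent gene for Rpl19, where they made up 31.8% of the counts of parent and copies together, for Rpsa with 24.6% and for Rps6 with 16.4%. Some genes also share bases with a neighbour. On the same strand Gm28037 covers 71.5% of the Rpl24 principal transcript and RPS10-NUDT3 covers 53.6% of that of Rps10. On the opposite strand D730044K07Rik covers 57.4% of Rpl30 and Fam69a covers 46.6% of Rpl5, and without a stated strand setting reads of such partners cannot be told apart.

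The summed counts of the family overlapped between the groups. They were 2.18%, 2.26% and 2.16% of the counts in EKO_exo replicates 1, 2 and 3, 2.11%, 2.16% and 2.21% in WT_exo, and 2.20%, 2.10% and 2.06% in PBS. PBS replicate 1 lay as high as the exosome libraries, and the spread within PBS was as wide as the distance between groups. In PBS replicate 1 the level of 65 of the 82 genes (79.3%) was the highest of the 3 PBS libraries, against 34.1% of all 14684 genes tested. Relative to the PBS mean, the median gene of the family lay at 0.037, 0.075 and 0.023 log2 in EKO_exo replicates 1, 2 and 3, at 0.009, 0.024 and 0.052 in WT_exo, and at 0.059, -0.023 and -0.049 in PBS. For 415 other protein-coding genes with a principal transcript under 1 kb, the median lay at 0.013, 0.041 and 0.012 in EKO_exo, at -0.046, -0.019 and 0.004 in WT_exo, and at 0.038, -0.005 and -0.033 in PBS. The family and other short transcripts thus moved in the same direction in each PBS library and in each EKO_exo library. In WT_exo replicates 1 and 2 they moved in opposite directions, the family above and the other short transcripts below the PBS mean. The part of transcript length in the results was not tested.

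The balance between the subunits separated the groups more clearly than the sum did. The log2 ratio of large over small subunit counts was 0.230, 0.233 and 0.223 in EKO_exo, 0.239, 0.241 and 0.242 in WT_exo, and 0.271, 0.272 and 0.259 in PBS. No library of one group overlapped with another group, and all exosome libraries lay below all PBS libraries. The mean difference was -0.0388 log2 for EKO_exo over PBS, -0.0270 for WT_exo over PBS and -0.0118 for EKO_exo over WT_exo. These are differences of at most a few percent, they are given as a description without a test, and they need no scaling between libraries since both sums come from the same library. The 95% exact binomial intervals, which cover counting error only, reached up to 0.248 in WT_exo and began at 0.252 in PBS, while those of EKO_exo replicate 2 (0.225 to 0.240) and WT_exo replicate 1 (0.232 to 0.246) overlapped. Without the 3 most counted genes of each subunit the EKO_exo over WT_exo difference shrank to -0.00563, and that over PBS stood at -0.0324.

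The lower ratio came with a larger gain in small subunit counts. The small subunit summed to 10164 CPM in EKO_exo and 9617 CPM in PBS, a difference of 547 CPM, of which Rps3 made up 101, Rps20 94.2 and Rps16 54.2 CPM. The large subunit summed to 11910 CPM in EKO_exo and 11577 CPM in PBS, a difference of 334 CPM, with Rpl8 adding 68.8 and Rplp2 45.9 CPM. In WT_exo the small subunit summed to 9904 CPM, which was 287 CPM above PBS, and the large subunit to 11701 CPM, 124 CPM above PBS. Rpl8 alone was 124 CPM higher in WT_exo than in PBS. In bulk samples, fewer cells of a type and less RNA per cell cannot be told apart.

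**Figure D2:**
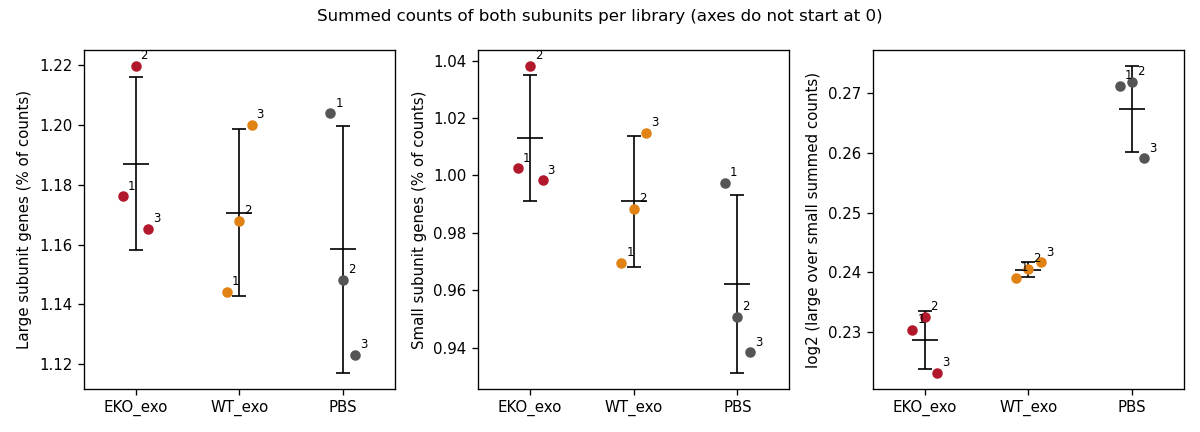
Counts of the 49 large and 33 small subunit genes as a percentage of each library's counts (left and middle) and the log2 ratio of large over small subunit counts (right), one numbered point per replicate with the mean and SD (n = 3) as a bar. The percentages overlap between EKO_exo, WT_exo and PBS, with PBS replicate 1 beside the exosome libraries, whereas the ratio runs from 0.223 to 0.233 in EKO_exo, 0.239 to 0.242 in WT_exo and 0.259 to 0.272 in PBS.

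In the comparison of EKO_exo with PBS, 7 ribosomal protein genes rose and 0 fell. These were Rps20, Rps16, Rps19 and Rps3 of the small subunit and Rpl29, Rpl30 and Rpl37 of the large subunit (edgeR quasi-likelihood F test, Benjamini-Hochberg adjusted p under 0.05 over all genes tested). The calls made up 8.54% of the family, 12.1% of the small and 6.12% of the large subunit genes, beside a background of 2.21% of all genes tested that rose, 2.87% that fell and 5.08% that changed either way. At an unadjusted p under 0.05, 19 of the 82 genes were higher and 1 was lower (edgeR). Of all 14684 genes tested, 1261 were higher and 1256 lower at this threshold. The DESeq2 Wald test called 9 of the family higher and 0 lower, and its count over all genes is not given here. The median log2 fold change was 0.04 over the family, 0.08 in the small and 0.02 in the large subunit, beside 0.00 over all genes, so most members moved by only a few percent. With 1 library left out, the median ran from 0.0507 to 0.106 in the small and from 0.000395 to 0.0504 in the large subunit. The fold change was above 0 for 54 of 82 genes. It ranged from -0.26 for Rps23 to 0.43 for Rpl37. The 3 EKO_exo libraries all lay above the 3 PBS libraries for 12 genes and all below for 1, beside 9.94% and 10.6% of all genes. The one below was Rps23, with 12.5, 12.0 and 12.2 CPM in EKO_exo, against 16.1, 14.3 and 13.6 CPM in PBS (adjusted p = 0.271, edgeR), which is named because it was the only one.

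The count of 7 depended on single libraries. It was 4 without EKO_exo replicate 2, without PBS replicate 2 or without PBS replicate 3. It was 13 without EKO_exo replicate 3 and 14 without PBS replicate 1, the PBS library with the highest levels of the family. Without EKO_exo replicates 1 and 3 together it was 8. Rps20, Rps16, Rps19 and Rpl29 passed the test in every alternative that was run.

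**Figure D3:**
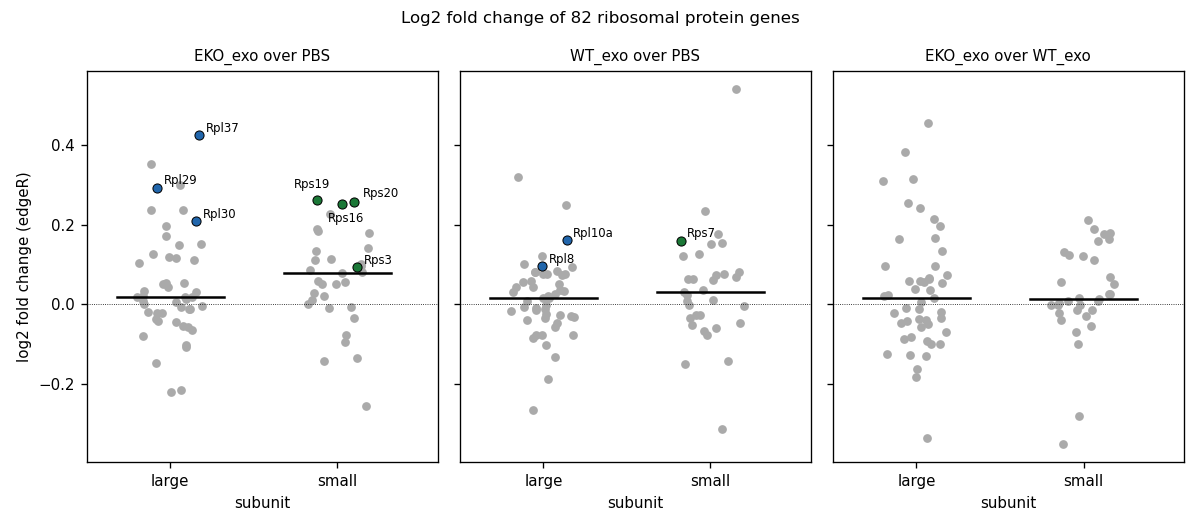
Log2 fold change (edgeR) of each of the 82 genes by subunit for EKO_exo over PBS, WT_exo over PBS and EKO_exo over WT_exo; coloured and named points passed the adjusted p threshold of 0.05, grey points did not, and bars are medians. Small subunit genes have a median of 0.08 in EKO_exo over PBS, 0.03 in WT_exo over PBS and 0.01 in EKO_exo over WT_exo, and no gene is called in the last.

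Rps20, a small subunit protein of the head (ENSMUSG00000028234, GRCm38 chromosome 4, 3831334 to 3835665, minus strand), had 600, 595 and 540 CPM in EKO_exo, 496, 520 and 519 CPM in WT_exo, and 515, 475 and 462 CPM in PBS. All EKO_exo libraries lay above all others, and WT_exo overlapped with PBS. Its log2 fold change was 0.26 ± 0.0399 for EKO_exo over PBS (SE, adjusted p = 0.000141, edgeR), the smallest adjusted p of the family. Rps16, which contacts the tRNA in the peptidyl site (ENSMUSG00000037563, chromosome 7, 28350652 to 28353155, plus strand), had 350.0, 338 and 328 CPM in EKO_exo, 282, 290 and 319 CPM in WT_exo, and 296, 278 and 279 CPM in PBS. The EKO_exo libraries again stood above every other library, and the fold change over PBS was 0.25 ± 0.0423 log2 (adjusted p = 0.000351, edgeR).

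Rps19, the gene most often mutated in human Diamond-Blackfan anaemia (ENSMUSG00000040952, chromosome 7, 24884371 to 24889806, plus strand), had 238, 260 and 224 CPM in EKO_exo, 208, 220 and 241 CPM in WT_exo, and 204, 195 and 203 CPM in PBS. Both exosome groups lay above PBS in every library and overlapped with each other. The log2 fold change was 0.26 ± 0.0504 for EKO_exo over PBS (adjusted p = 0.00143, edgeR) and 0.15 ± 0.0504 for WT_exo over PBS, where it did not pass (adjusted p = 0.0837, edgeR) but did in 6 of 18 alternatives, over a range from 0.0148 to 0.499. Rps3, at the entry of the mRNA channel (ENSMUSG00000030744, chromosome 7, 99477896 to 99483738, minus strand), had 1609, 1614 and 1599 CPM in EKO_exo, 1596, 1555 and 1584 CPM in WT_exo, and 1558, 1504 and 1457 CPM in PBS. All EKO_exo libraries lay above all others, but the rise was the smallest of the 7, with 0.09 ± 0.0254 log2 over PBS (adjusted p = 0.0268, edgeR). Leaving out EKO_exo replicate 1, EKO_exo replicate 2, PBS replicate 2 or PBS replicate 3 ended this call, with an adjusted p of up to 0.165, as did fitting only EKO_exo and PBS (0.0638), keeping low counts (0.0616) and leaving out EKO_exo replicates 1 and 3 together (0.176).

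Rpl29, a basic large subunit protein (ENSMUSG00000048758, chromosome 9, 106429454 to 106431568, plus strand), had 169, 164 and 139 CPM in EKO_exo, 124, 127 and 130 CPM in WT_exo, and 141, 121 and 122 CPM in PBS. PBS replicate 1 lay above EKO_exo replicate 3, so these groups overlapped, and EKO_exo lay above WT_exo in every library. The log2 fold change was 0.29 ± 0.0608 for EKO_exo over PBS (adjusted p = 0.00317, edgeR). Of its 100-base stretches 50.9% also occur in other transcripts, and of those of Rpl30, described next, 65.1%. Rpl30 (ENSMUSG00000058600, chromosome 15, 34440505 to 34443640, minus strand), which in yeast binds and represses the splicing of its own transcript, had 148, 151 and 146 CPM in EKO_exo, 118, 131 and 134 CPM in WT_exo, and 135, 126 and 123 CPM in PBS. EKO_exo stood above both other groups, with 0.21 ± 0.0506 log2 over PBS (adjusted p = 0.0125, edgeR), which did not pass once EKO_exo replicate 2, PBS replicate 2 or PBS replicate 3 was left out (up to 0.080), nor without EKO_exo replicates 1 and 3 together (0.0837).

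Rpl37, a zinc-binding large subunit protein (ENSMUSG00000041841, chromosome 15, 5116645 to 5119140, plus strand), had 22.2, 26.6 and 24.1 CPM in EKO_exo, 17.1, 20.6 and 18.2 CPM in WT_exo, and 21.5, 18.3 and 14.6 CPM in PBS. The groups EKO_exo and PBS came within 1 CPM of each other, and PBS spread the most. Its log2 fold change of 0.43 ± 0.122 over PBS was the largest of the family (adjusted p = 0.0372, edgeR). It did not pass when any one of EKO_exo replicates 2 and 3, WT_exo replicates 1 and 3 and PBS replicates 2 and 3 was left out, with an adjusted p of up to 0.235, nor when only EKO_exo and PBS were fitted (0.0553) or EKO_exo replicates 1 and 3 were both left out (0.0756).

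**Figure D4:**
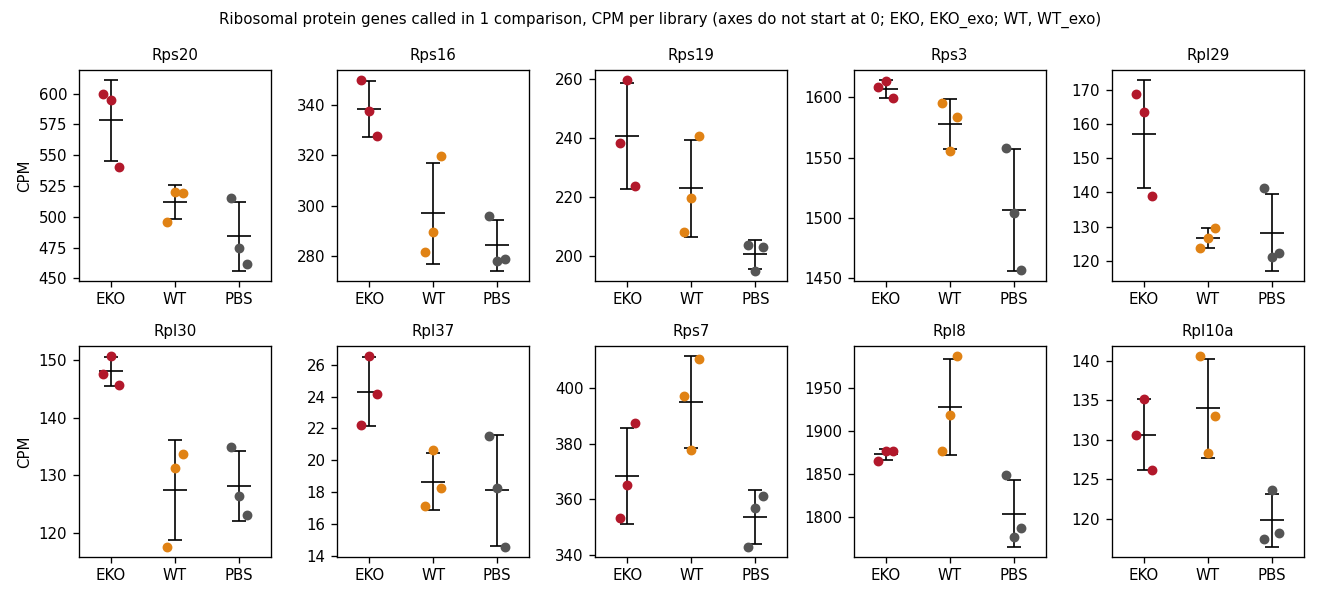
CPM in each library of the 10 genes that passed the test in a comparison, with EKO_exo, WT_exo and PBS from left to right and the mean and SD (n = 3) as bars; the vertical axes differ between genes and do not start at 0. Rps20, Rps16 and Rpl30 are highest in EKO_exo with WT_exo near PBS, whereas Rps7, Rpl8 and Rpl10a are highest on average in WT_exo.

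WT_exo against PBS gave 3 genes that rose and 0 that fell: Rps7 of the small subunit and Rpl8 and Rpl10a of the large subunit. This was 3.66% of the family, beside 1.83% of all genes that rose, 3.14% that fell and 4.97% that changed either way, so the share called in either direction was no higher than the background. Both comparisons use the same PBS libraries, so they are not independent. The median log2 fold change was 0.02 over the family, 0.03 in the small and 0.02 in the large subunit, and it was above 0 for 47 of 82 genes. All WT_exo libraries lay above all PBS libraries for 10 genes and below for 1, beside 10.6% and 11.6% of all genes. The one below was Rps29, with 6.86, 8.80 and 7.98 CPM in WT_exo, against 10.1, 10.0 and 9.28 CPM in PBS (adjusted p = 0.287, edgeR), again named because it was the only one. The count of 3 fell to 0 without WT_exo replicate 3, to 1 without WT_exo replicate 2 or PBS replicate 2 or 3, and to 2 without WT_exo replicate 1 or EKO_exo replicate 2. At an unadjusted p under 0.05 edgeR gave 10 higher and 1 lower, beside 1079 higher and 1238 lower of all 14684 genes tested. The DESeq2 Wald test called 7 of the family higher and 0 lower, and its count over all genes is not given here.

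Rps7, which like other ribosomal proteins can bind Mdm2 (ENSMUSG00000061477, chromosome 12, 28630854 to 28635953, minus strand), had 397, 378 and 411 CPM in WT_exo, 353, 365 and 387 CPM in EKO_exo, and 343, 357 and 361 CPM in PBS. All WT_exo libraries lay above PBS, and EKO_exo overlapped with both. The log2 fold change was 0.16 ± 0.0383 for WT_exo over PBS (adjusted p = 0.0107, edgeR). This call was lost without WT_exo replicate 1 or 3 or PBS replicate 1 (up to 0.112). Of the 100-base stretches of Rps7, 55.9% also occur in other transcripts. Rpl8 (ENSMUSG00000003970, chromosome 15, 76904078 to 76906314, plus strand) had 1877, 1919 and 1988 CPM in WT_exo, 1866, 1876 and 1877 CPM in EKO_exo, and 1849, 1777 and 1787 CPM in PBS. Every exosome library exceeded every PBS library, though by a small margin of 0.10 ± 0.0245 log2 in WT_exo (adjusted p = 0.0175, edgeR), and the call was lost without WT_exo replicate 2 or 3 or PBS replicate 2 or 3 (up to 0.166).

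Rpl10a, the protein of the mobile stalk at the tRNA exit side (ENSMUSG00000037805, chromosome 17, 28328471 to 28331033, plus strand), had 141, 128 and 133 CPM in WT_exo, 131, 135 and 126 CPM in EKO_exo, and 117, 124 and 118 CPM in PBS. Both exosome groups lay above PBS in each library and overlapped with each other. The log2 fold change was 0.16 ± 0.0480 for WT_exo over PBS (adjusted p = 0.0472, edgeR). It was lost when any one of the WT_exo or PBS libraries or EKO_exo replicate 2 was left out, with an adjusted p of up to 0.273, and when pseudogene counts were added (0.0583). Of its 100-base stretches 87.1% also occur in other transcripts.

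Between the exosome groups, EKO_exo against WT_exo, 0 ribosomal protein genes were called, beside 0.0272% of all genes tested that were higher, 0.00681% that were lower and 0.0341% in either direction. At an unadjusted p under 0.05, 16 genes were higher and 5 lower (edgeR quasi-likelihood F test). Of all 14684 genes tested, 571 were higher and 468 lower at this threshold. The DESeq2 Wald test called 5 of the family higher and 0 lower, and its count over all genes is not given here. The median log2 fold change was 0.01 over the family and 46 of 82 genes were above 0. All EKO_exo libraries lay above all WT_exo libraries for 12 genes and below for 6, beside 5.88% and 5.97% of all genes. Rpl29 came closest, with 0.31 ± 0.0607 log2 (adjusted p = 0.0543, edgeR), and 9 of 18 alternatives brought it past the threshold, over a range from 4.05e-06 to 0.487. Rps16 followed with 0.19 ± 0.0422 and Rps20 with 0.18 ± 0.0399 log2 (adjusted p = 0.196 for both, edgeR). Rps16 passed in 3 of 18 alternatives (0.00826 to 0.888) and Rps20 in 4 of 18 (0.00405 to 0.888). Rps20, Rps16, Rps19, Rps3, Rpl29, Rpl30 and Rpl37 were called against PBS in EKO_exo and not in WT_exo. None of these genes is thus shown to differ between the exosome groups by the edgeR test.

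A group of genes followed single libraries more than groups. Rpl26, which in humans binds the p53 mRNA, had 127, 137 and 96.6 CPM in EKO_exo, 92.9, 99.1 and 98.1 CPM in WT_exo, and 124, 91.6 and 90.1 CPM in PBS. EKO_exo replicates 1 and 2 and PBS replicate 1 stood well above the 6 other libraries, and its fold changes did not pass (adjusted p = 0.175 for EKO_exo over PBS and 0.426 for EKO_exo over WT_exo, edgeR). The same 3 libraries were the 3 highest of 9 for 12 of the 82 genes (14.6%), against 1.37% of all genes tested, a pattern that was looked for after the values had been seen. Besides Rpl26 these included Rpl13a, Rpl14, Rpl23, Rpl29, Rpl32, Rpl35a, Rpl36, Rpl37a, Rps24 and Rps25. Of the 12, Rpl29 is the only one that was called. The labels name no batch that links these libraries.

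The stalk and other functional groups showed smaller movements. Rplp0 had 1407, 1421 and 1411 CPM in EKO_exo, 1362, 1374 and 1437 CPM in WT_exo, and 1429, 1388 and 1335 CPM in PBS. Rplp1 and Rplp2, which bind Rplp0 as acidic stalk dimers that recruit elongation factors, changed by 0.00 ± 0.0461 and 0.11 ± 0.0460 log2 in EKO_exo over PBS and by 0.02 ± 0.0459 and 0.06 ± 0.0459 in WT_exo over PBS, and neither passed. The groups overlapped for all 3 stalk genes.

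Rpl5 and Rpl11 form, with an RNA of the large subunit, the particle that binds Mdm2 when ribosome assembly fails. Rpl5 had 48.6, 51.7 and 46.1 CPM in EKO_exo, 49.2, 49.0 and 49.4 CPM in WT_exo, and 46.8, 39.7 and 37.8 CPM in PBS. WT_exo lay above PBS in each library and EKO_exo replicate 3 fell below PBS replicate 1, with log2 fold changes of 0.24 ± 0.0786 in EKO_exo and 0.25 ± 0.0783 in WT_exo that did not pass (adjusted p = 0.0804 and 0.0671, edgeR). Rpl11 differed from PBS by -0.01 ± 0.106 log2 in EKO_exo and -0.03 ± 0.105 in WT_exo.

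Rps6 had 6.34, 7.01 and 7.94 CPM in EKO_exo, 9.31, 9.21 and 8.68 CPM in WT_exo, and 7.36, 5.05 and 6.29 CPM in PBS. The WT_exo libraries lay above all others, and the log2 fold change of 0.54 ± 0.166 for WT_exo over PBS was the largest positive value of that comparison but did not pass (adjusted p = 0.0576, edgeR). With 83.6% of its stretches shared with other transcripts, its level is uncertain. Rpsa differed from PBS by -0.14 ± 0.129 log2 in either exosome group, and Rpl13a, which in human monocytes joins a complex that silences interferon-induced mRNAs, by 0.17 ± 0.0919 in EKO_exo and -0.03 ± 0.0920 in WT_exo.

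Several members have paralogs, and the usual form was the more abundant in most pairs. Rpl22, whose loss in mice impairs the development of alpha-beta T cells, stood at 153.3 CPM per kb and Rpl22l1 at 64.0. Rpl22l1 had 31.5, 37.8 and 29.8 CPM in EKO_exo, 35.5, 39.5 and 37.3 CPM in WT_exo, and 37.4, 36.0 and 33.2 CPM in PBS, with overlapping groups. Rpl36a stood at 37.2 CPM per kb, against 5.24 for Rpl36al. Per kilobase of coding length the gap was smaller, with 56.5 against 21.0. Rpl36a shares 83.6% of its stretches with other transcripts, and Gm49383 covers 26.0% of the Rpl36al principal transcript on the same strand. The order was the reverse for Rps27, at 16.3 CPM per kb, and its paralog Rps27l, a p53 target, at 74.6, but Rps27 shares 98.4% of its stretches with other transcripts and Rps27l 0%. Rpl3l, the muscle form of Rpl3, averaged 0.0276 CPM, Rpl39l, the testis form of Rpl39, 0.292 CPM, and Rpl10l was at 0 in every library. No gene of these pairs was called in any comparison.

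Other lists of the translation machinery set the frame. Over all genes tested, 2.21% rose and 2.87% fell in EKO_exo against PBS, and 1.83% rose and 3.14% fell in WT_exo. Of 26 genes for chaperones, import and assembly of ribosomal proteins, 5 fell and 0 rose in EKO_exo against PBS (median log2 fold change -0.02). Npm1, a nucleolar chaperone, had 920.4, 937 and 916 CPM in EKO_exo, 983, 954 and 968 CPM in WT_exo, and 1064, 1089 and 1045 CPM in PBS. The groups did not overlap, and the log2 fold change was -0.21 ± 0.0266 for EKO_exo over PBS (adjusted p = 1.25e-05, edgeR) and -0.14 ± 0.0266 for WT_exo over PBS (adjusted p = 0.00126, edgeR). The importin Ipo5, nucleolin (Ncl), the pre-ribosomal factor Rrp12 and the importin Ipo7 were the others that fell in EKO_exo, by 0.19, 0.14, 0.19 and 0.12 log2. In WT_exo 4 of the 26 fell, namely Ncl, Ipo5, Npm1 and Rrp12. Npm1, Ipo5 and Ncl passed in both comparisons whichever single library was left out. Rrp12 did not pass in EKO_exo without PBS replicate 2 (adjusted p = 0.0789, edgeR), nor in WT_exo without PBS replicate 1 or 2 or any one WT_exo library (up to 0.247), and Ipo7 did not without EKO_exo replicate 3 or PBS replicate 1 or 2 (up to 0.139). At an unadjusted p under 0.05, 1 of the 26 was higher in either exosome group (edgeR), and the DESeq2 Wald test called 1 higher and 6 lower in EKO_exo and 0 higher and 5 lower in WT_exo.

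Of the 7 partners outside the rule, which are ubiquitin-fused or ribosome-bound proteins, Btf3, a subunit of the nascent chain complex, fell by 0.19 log2 in EKO_exo against PBS (adjusted p = 0.0165, edgeR), though not without PBS replicate 1 or 2 (up to 0.103). In WT_exo, Tpt1 and Rack1 rose. Tpt1, which has a well known pyrimidine tract, had 1142, 1124 and 1111 CPM in EKO_exo, 1239, 1219 and 1327 CPM in WT_exo, and 1070, 1114 and 1080 CPM in PBS. It rose by 0.21 ± 0.0293 log2 in WT_exo over PBS (adjusted p = 2.43e-05, edgeR) whichever single library was left out. It differed between the exosome groups by -0.16 ± 0.0293 log2 (adjusted p = 0.0207, edgeR), the only gene of these lists to do so, but not when EKO_exo replicate 2 or 3 or any one WT_exo library was left out (up to 0.352). Rack1, a scaffold on the small subunit, rose by 0.08 ± 0.0236 log2 in WT_exo over PBS (adjusted p = 0.0398, edgeR), a result that 6 of the 9 libraries could each end when left out (up to 0.267): EKO_exo replicate 2, any one WT_exo library, and PBS replicates 1 and 3. Of 8 elongation factors 1 rose in WT_exo, Eef1a1 with 0.09 ± 0.0205 log2 (adjusted p = 0.00616, edgeR; 0.059 without WT_exo replicate 3). In EKO_exo 0 were called by edgeR or DESeq2, and 1 was higher at an unadjusted p under 0.05.

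None of 23 initiation factors and none of 16 genes of mTORC1 and the control of pyrimidine-tract mRNAs was called in any comparison by the edgeR quasi-likelihood F test. At an unadjusted p under 0.05 (edgeR), 2 initiation factors were higher and 5 lower in EKO_exo against PBS. In WT_exo against PBS 0 were higher and 3 lower. Of the mTORC1 list 2 were higher and 2 lower in EKO_exo and 2 higher and 0 lower in WT_exo. Of all 14684 genes tested, 1261 were higher and 1256 lower in EKO_exo, and 1079 higher and 1238 lower in WT_exo. The DESeq2 Wald test called 1 initiation factor higher and 1 lower in EKO_exo and 1 lower in WT_exo, and of the mTORC1 list 1 higher in EKO_exo and 2 in WT_exo. Larp1 came close, with 926, 908 and 922 CPM in EKO_exo, 921, 917 and 912 CPM in WT_exo, and 861, 862 and 874 CPM in PBS, and adjusted p = 0.0507 and 0.0651 against PBS. Of 16 genes of RNA polymerase I and Myc, 2 rose in EKO_exo (Max and Myc) and 2 in WT_exo (Myc and Taf1c), with Myc, the main activator of ribosome genes, higher by 0.14 ± 0.0316 and 0.12 ± 0.0316 log2. Max passed whichever single library was left out. Myc did not pass in EKO_exo without EKO_exo replicate 2 or PBS replicate 3 (up to 0.0745), nor in WT_exo without WT_exo replicate 1 or 2 or PBS replicate 1 or 3 (up to 0.152), and Taf1c did not without WT_exo replicate 2 or 3 or PBS replicate 1 or 3 (up to 0.22). Of 10 genes of p53 and ribosomal stress, Trp53inp1, Trp53 and Bax rose and Gtse1 fell in EKO_exo, while Trp53inp1 rose and Gtse1 fell in WT_exo. The 2 calls in WT_exo held whichever single library was left out. Of the 4 in EKO_exo, all were lost without PBS replicate 1 or 2, Trp53inp1 also without EKO_exo replicate 1, Gtse1 also without EKO_exo replicate 3, and Bax without any one library other than WT_exo replicates 2 and 3 (up to 0.154). Of 78 mitochondrial ribosomal protein genes 0 rose and 1, Mrpl40, fell in either exosome group against PBS. Over all genes tested, 2.87% fell in EKO_exo and 3.14% in WT_exo. The median log2 fold changes of the 78 genes were -0.02 in EKO_exo and -0.05 in WT_exo. Mrpl40 did not pass in EKO_exo without EKO_exo replicate 1 or any one PBS library, nor in WT_exo without any one WT_exo or PBS library (up to 0.172 in both). At an unadjusted p under 0.05, 0 of the 78 were higher and 5 lower in EKO_exo, and 1 higher and 9 lower in WT_exo (edgeR). Of all 14684 genes, 1256 were lower in EKO_exo and 1238 in WT_exo at this threshold. The DESeq2 Wald test called 1 lower in EKO_exo and 3 lower in WT_exo.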

How the data were processed

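Messenger RNA of 9 libraries was used as whole-number counts per gene, deposited by the authors without normalization. STAR 2.7.5c and the build GRCm38 are named in the submitters' processing notes. Which tool counted the reads, with which annotation and strand setting, is not stated there. Groups and replicate numbers came from the titles. Replicates are biological by the design text, yet no label ties them to separate mice, and p-values then measure only the spread between these samples, which may be technical. The chi-square per degree of freedom between libraries of a group ran from 5.21 to 9.54, above counting noise.

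Symbols, spans and principal transcripts came from GENCODE M21 (GRCm38), which named all 55536 identifiers. Counts were fitted in R 4.3.3 with edgeR 4.0.16: filterByExpr (minimum count 10, total 15; 14684 genes), TMM, 1 model over 9 libraries with 3 groups and no covariate, quasi-likelihood F tests, and Benjamini-Hochberg adjustment over all genes tested, with 0.05 as threshold. CPM are relative to the TMM-scaled library size; percentages of counts are unscaled. The fit was also run on counts simulated with the spread estimated from these data. That simulation held no outlying library, so it cannot test effects of single libraries. DESeq2 1.42.0 was an alternative. Shared sequence was counted as identical 100-base stretches on either strand of the transcripts of other genes, with Python 3.11.15. Starts came from RefSeq for GRCm38.p6.

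Named genes were all that passed a test, the 3 highest and 3 lowest per subunit by level per kb, paralog pairs, a fixed list of 9, and the 2 with the smallest p of each other list. Some genes of the family are counted in the sums but not reported here by name. A few others are named as chosen after their values were seen, and each called gene of the other lists is named. The members and all lists were chosen with earlier results of these data known. Sums over the family were described without a test.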

Additional observations from a re-analysis of the deposited data

How the results depend on the processing

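No called gene changed direction under the alternatives run. Leaving out single libraries moved the number of ribosomal protein genes that rose between 4 and 14 in EKO_exo against PBS, between 0 and 4 in WT_exo against PBS, and between 0 and 3 in EKO_exo against WT_exo. For WT_exo against PBS, 5 rose with no filter on low counts, 6 with a mean of at least 5 CPM, 6 with only the 2 groups fitted, 7 with the DESeq2 Wald test and 6 without EKO_exo replicates 1 and 3, a setting chosen after seeing the data. For EKO_exo against WT_exo, 1 rose with DESeq2 size factors in edgeR, with scaling without the member genes, with only the 2 groups fitted and with pseudogene counts added, 3 with a mean of at least 5 CPM, 5 with the DESeq2 Wald test and 8 with no filter. The causes were not tested.

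The median log2 fold change of the small subunit in WT_exo over PBS ran between 0.013 and 0.072 when 1 library was left out, and that of the large subunit in EKO_exo over WT_exo between 0.0058 and 0.040. Leaving out 1 library also took the medians closest to 0 across it: from -0.0207 to 0.0569 for the large subunit in WT_exo over PBS and from -0.00314 to 0.0448 for the small subunit in EKO_exo over WT_exo. Without EKO_exo replicates 1 and 3, which assumes that the lone EKO_exo library varies like the other groups, the medians of EKO_exo over WT_exo were 0.038 and 0.057 in the large and small subunit. The difference in the log2 ratio of large to small subunit counts was -0.0324 for EKO_exo over PBS and -0.00563 for EKO_exo over WT_exo without the 3 most counted genes of each subunit. It was -0.0504, -0.0331 and -0.0174 for EKO_exo over PBS, WT_exo over PBS and EKO_exo over WT_exo with only the genes under 50% shared stretches, also chosen after seeing the data.

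Same-numbered libraries did not deviate together (correlations of -0.072 to 0.017, beside -0.091 to 0.144 for libraries of different numbers). No pairing by number was thus seen. The check cannot exclude one, since each deviation is taken from a mean of only 3 libraries. With the replicate number as a block, 7 genes rose in EKO_exo against PBS, 2 in WT_exo against PBS and 0 in EKO_exo against WT_exo; Rpl10a lost its call (adjusted p = 0.0719). Precision was lower for genes under 10 CPM, whose coefficient of variation in PBS had a median of 11.5%, against 3.51% over 100 CPM. The part of depth in this was not tested. Of the 10 highest genes per kb, 9 stayed with the length of all annotated exons and 7 with the coding length.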
